A study of Homo sapiens with 7 samples.

Results

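The proteasome is the large protease that degrades ubiquitin-tagged proteins, and its genes carry the symbols PSMA to PSMG with a number. In the deposited table, 48 of 19978 genes matched this rule, which used no measured value. PSMC3IP and PSME3IP1 only start like members and were left out, and 46 of the 48 were measured well enough to be tested. The members comprised 8 α-ring genes, 7 standard β-ring genes, 4 immunoproteasome and thymoproteasome genes, 6 cap ATPases, 11 other cap subunits, 5 activator or inhibitor genes and 7 assembly genes. They were measured by poly(A) RNA sequencing of HEK-293, an established human embryonic kidney line, after 48 h. The 2 control samples were kept in medium of pH 7.4 with the vehicle DMSO. The 3 acidosis samples had DMSO and medium of pH 6.6. The 2 SRPIN340 samples had pH 7.4 and 10 µM of the inhibitor. SRPIN340 inhibits the kinases that phosphorylate SR splicing factors, and the same volume of DMSO was present in every group. The question was whether acidification and kinase inhibition changed these genes in the same way. A sample is 1 biological repeat of this single line, and the samples of a group have no further separation in the labels, so p-values measure the spread between these samples.

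The proteasome has a barrel-shaped core and a regulatory cap. The core holds outer rings of α subunits, which gate the entrance, and inner rings of β subunits, of which PSMB5, PSMB6 and PSMB7 cut proteins. The cap binds ubiquitin chains, removes them and unfolds the substrate with a ring of ATPases. The subunits are built into the particle in fixed proportions with the help of dedicated chaperones. Interferon replaces the cutting subunits with PSMB8, PSMB9 and PSMB10, giving the immunoproteasome, and when proteasomes are impaired the transcription factor NFE2L1 is known to raise subunit genes together.

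Libraries held 13615816 to 24110460 estimated counts, with 2 of the 3 acidosis samples shallowest. Of the HEK-293 markers, LHX1 lay at 13.7 to 18.5 CPM (counts scaled to a common library total with TMM factors), NEFL at 92.5 to 169 CPM and PAX2 at 1.19 to 7.06 CPM over the 7 samples, and the leukocyte marker PTPRC, the endothelial PECAM1 and the hepatocyte ALB stayed under 1 CPM. COL1A1, a fibroblast gene, was at 27.9 to 65.6 CPM and rose in acidosis (1.02, and 0.44 with total-count scaling), and PTPRC passed as higher there at its low level (2.12, adjusted p = 0.047, and adjusted p = 0.12 with total-count scaling). NEFH lay at only 0.73 to 1.47 CPM, NEFM at 22.6 to 73.5, VIM at 836 to 2745, KRT8 at 288 to 463 and KRT18 at 99.6 to 125 CPM. Of the 8 HEK-293 markers, 4 rose, 2 fell and 2 did not pass in acidosis, and 2 rose and 4 fell with total-count scaling. VIM and NEFM rose most (1.65 each, and 1.07 and 1.08 with total-count scaling), and PAX2 fell most (-1.93, and -2.50 with total-count scaling). The 4 markers of other cells summed to 28.77 to 38.55 CPM in control and SRPIN340 samples and to 58.76 to 66.57 CPM in acidosis, nearly all of it COL1A1, and their part in the results was not tested. Scaling mattered in acidosis. With total count in place of TMM, the log2 fold change of the median gene against control moved from -0.05 to -0.63. Levels in acidosis are therefore relative to the typical gene, and no measure of cell number or of RNA per cell was used here.

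Acidosis moved the proteasome genes in both directions. Of 46 members tested, 12 rose (26.1%, against 32.5% of all 14863 genes tested) and 21 fell (45.7%, against 34.2%), at an adjusted p under 0.05 (edgeR quasi-likelihood test, Benjamini-Hochberg over all genes), and 13 did not pass. Scaled by total count, 4 of the 12 still passed as higher (PSMD2, PSMB3, PSMD10 and PSME1), 5 passed as lower and 3 did not pass, while all 21 that fell still passed as lower. With a log2 fold change over 1 asked as well, PSMD2 alone rose (background 14.4%) and PSMG1, PSMB9, PSMD5 and PSMA3 fell (background 19.1%). The typical member moved less than the typical gene, with a median absolute log2 fold change of 0.40 against 0.74, not matched for level. The summed level of all members was 5784 and 5955 CPM in control and 5958, 5770 and 5887 CPM in acidosis. These sums overlapped between the groups. As a share of all counts, without TMM, the members held 0.678% and 0.704% in control and 0.469%, 0.462% and 0.460% in acidosis, all 3 below both controls.

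**Figure D1:**
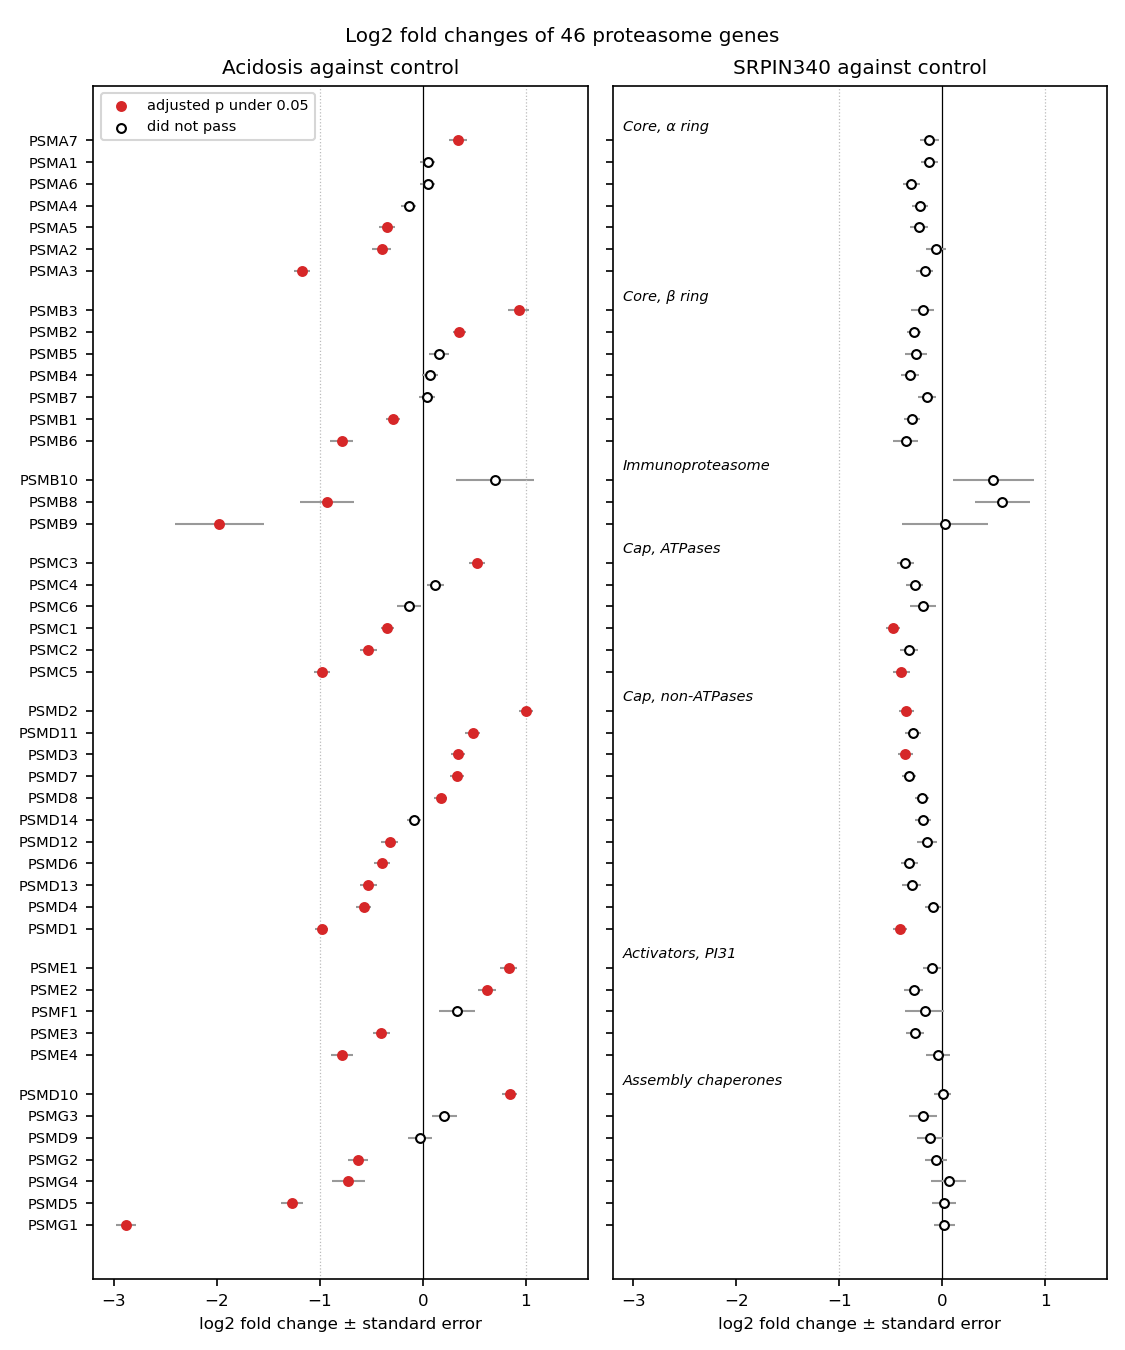
Log2 fold changes (horizontal axis, ± standard error) of the 46 tested proteasome genes, ordered within each class, for acidosis (left) and SRPIN340 (right) against control. Filled points passed an adjusted p under 0.05, with 12 above 0 and 21 below 0 on the left and 5 below 0 on the right. Scaled by total count, 5 of the 12 stay above 0.

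The upstream sequences of 4 members are shown. PSMG1 fell most and PSMD2 rose most in acidosis, PSME1 rose and holds an antioxidant core, and PSMB9 shares its upstream region with TAP1. Each run is the 250 bases before the RefSeq start site (GRCh38.p14), written 5′ to 3′ on the gene's strand, and ends at the base next to the start. Capitals mark the antioxidant element core (TGACNNNGC or TGAGNNNGC, either strand), which NFE2L1 and NFE2L2 bind with small MAF proteins, and the CCAAT box on either strand.
PSMG1 (chr21:39183452-39183701, minus strand): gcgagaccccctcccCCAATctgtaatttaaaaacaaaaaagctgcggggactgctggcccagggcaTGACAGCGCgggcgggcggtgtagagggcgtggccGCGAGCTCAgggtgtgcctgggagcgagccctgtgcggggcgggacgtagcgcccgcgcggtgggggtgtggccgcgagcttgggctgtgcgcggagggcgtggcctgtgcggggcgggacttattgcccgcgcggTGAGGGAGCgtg
PSMD2 (chr3:184298991-184299240, plus strand): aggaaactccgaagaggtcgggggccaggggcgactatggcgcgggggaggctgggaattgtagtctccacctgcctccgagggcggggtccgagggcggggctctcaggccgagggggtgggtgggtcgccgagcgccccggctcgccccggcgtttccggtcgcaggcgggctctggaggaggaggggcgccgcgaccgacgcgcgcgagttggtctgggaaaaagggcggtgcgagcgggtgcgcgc
PSME1 (chr14:24135944-24136193, plus strand): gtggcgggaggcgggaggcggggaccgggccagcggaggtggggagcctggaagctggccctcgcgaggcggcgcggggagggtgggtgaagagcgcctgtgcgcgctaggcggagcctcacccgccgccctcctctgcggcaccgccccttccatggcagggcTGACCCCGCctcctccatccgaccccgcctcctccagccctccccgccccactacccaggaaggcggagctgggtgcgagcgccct
PSMB9 (chr6:32853942-32854191, plus strand): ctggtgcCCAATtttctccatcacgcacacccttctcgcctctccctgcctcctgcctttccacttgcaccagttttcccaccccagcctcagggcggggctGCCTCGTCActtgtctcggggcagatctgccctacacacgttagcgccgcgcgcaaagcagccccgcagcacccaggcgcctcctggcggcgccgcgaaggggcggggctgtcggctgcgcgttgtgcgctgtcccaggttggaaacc
The PSMG1 window held 3 antioxidant cores, that of PSME1 1, that of PSMB9 1 and that of PSMD2 none of these motifs. A match describes letters and is not a shown binding site.

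Class counts in acidosis stand beside 32.5% of all genes higher and 34.2% lower, or 16.2% and 55.0% with total-count scaling. Of the 7 α-ring genes tested, 1 rose, 3 fell and 3 did not pass in acidosis. With total-count scaling, all 7 passed as lower. PSMA3 was 103 and 101 CPM in control, 87.6 and 93.3 CPM with SRPIN340, and 45.3, 43.4 and 46.9 CPM in acidosis. All 3 acidosis samples lay below every other sample, and the log2 fold change was -1.17 ± 0.08 (SE, adjusted p = 1e-06). PSMA2 (-0.40) and PSMA5 (-0.35) fell less. PSMA7 was 101 and 115 CPM in control against 143, 128 and 140 CPM in acidosis, a rise of 0.34 ± 0.08 (adjusted p = 0.0049) on the log2 scale that turned to -0.23 with total-count scaling. It also missed the threshold without control sample 1 (0.25, adjusted p = 0.061). PSMA8, the α subunit of testis proteasomes, had 0 counts in all 7 samples, which allows up to 0.105 to 0.275 CPM for counting error alone.

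In the β ring, 2 of 7 genes rose, 2 fell and 3 did not pass, while 1 was higher and 6 lower with total-count scaling. PSMB3, a structural subunit that does not cut, was 116 and 147 CPM in control, 117 and 114 CPM with SRPIN340 and 266, 237 and 250 CPM in acidosis. The acidosis samples stood above all others, with a log2 fold change of 0.93 ± 0.10 (adjusted p = 3.02e-05), and 0.36 (adjusted p = 0.0114) with total-count scaling. PSMB2 also rose (0.35), but was at -0.22 with total-count scaling, and PSMB1 fell by 0.29.

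The standard cutting subunits did not move as a unit in acidosis. PSMB6, the caspase-like site, was 83.5 and 97.3 CPM in control and 58.1, 47.8 and 50.7 CPM in acidosis, below both controls without overlap (-0.79 ± 0.11, adjusted p = 0.00015). PSMB5, the chymotrypsin-like site, was 92.6 and 113 CPM in control and 116, 108 and 121 CPM in acidosis, and the groups overlapped (0.16 ± 0.10, adjusted p = 0.18, and -0.42 with total-count scaling). PSMB7, the trypsin-like site, was 116 and 122 CPM in control and 128, 114 and 126 CPM in acidosis, again with overlap (0.04 ± 0.08, adjusted p = 0.63, and -0.53 with total-count scaling). Without control sample 2, PSMB5 passed as higher (0.29, adjusted p = 0.044).

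The immunoproteasome genes were expressed far below their standard partners in HEK-293, and in acidosis PSMB8 and PSMB9 fell further. PSMB8 was 6.38 and 6.25 CPM in control, 10.9 and 7.97 CPM with SRPIN340 and 3.39, 2.30 and 4.21 CPM in acidosis. The acidosis samples were the lowest and the SRPIN340 samples the highest, with -0.93 ± 0.26 in acidosis (adjusted p = 0.010), 0.58 ± 0.27 with SRPIN340 (adjusted p = 0.29) and -1.51 between acidosis and SRPIN340 (adjusted p = 0.00052). PSMB9 was 3.06 and 3.48 CPM in control, 3.32 and 3.34 CPM with SRPIN340 and 0.594, 0.459 and 1.46 CPM in acidosis. These acidosis values rest on 9.6, 4.94 and 17.1 estimated counts, and all were below every other sample (-1.98 ± 0.43, adjusted p = 0.0026). PSMB10 did not pass, at 1.59 and 1.09 CPM in control and 2.49, 2.11 and 1.89 CPM in acidosis (0.70 ± 0.37, adjusted p = 0.12). PSMB11, the thymic subunit, had at most 1.02 estimated counts in any sample and was not tested.

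Ratios within a sample do not depend on library scaling, so partners were compared as CPM per kilobase of canonical transcript. PSMB8 was 6.39% and 5.12% of PSMB5 in control, 11.5% and 8.79% with SRPIN340 and 2.72%, 1.98% and 3.22% in acidosis. PSMB9 was 2.97% and 2.89% of PSMB6 in control, 3.61% and 4.06% with SRPIN340 and 0.828%, 0.778% and 2.33% in acidosis. Both ratios were lowest in the acidosis samples and highest in the SRPIN340 samples. PSMB10 was 1.38% and 0.896% of PSMB7 in control, 1.92% and 1.61% with SRPIN340 and 1.97%, 1.86% and 1.51% in acidosis, above both controls in either treatment. PSMB8 and PSMB9 lie side by side on chromosome 6 on opposite strands and their annotated extents overlap, as do those of PSMB9 and TAP1, so reads in shared stretches depend on how the quantifier assigned them.

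PSMB9 and TAP1, the peptide transporter used with the immunoproteasome, start 488 bases apart and are read away from each other, from 32854192 and 32853704 on chromosome 6. TAP1 was 66.7 and 66.2 CPM in control and 97.9, 82.5 and 95.8 CPM in acidosis (0.47 ± 0.09, adjusted p = 0.0013), while with total-count scaling it was -0.10. PSMB9 was 12.1% and 13.9% of TAP1 per kilobase in control, 13.1% and 13.6% with SRPIN340 and 1.6%, 1.47% and 4.03% in acidosis. That ratio was lowest in the 3 acidosis samples, whatever the scaling.

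**Figure D2:**
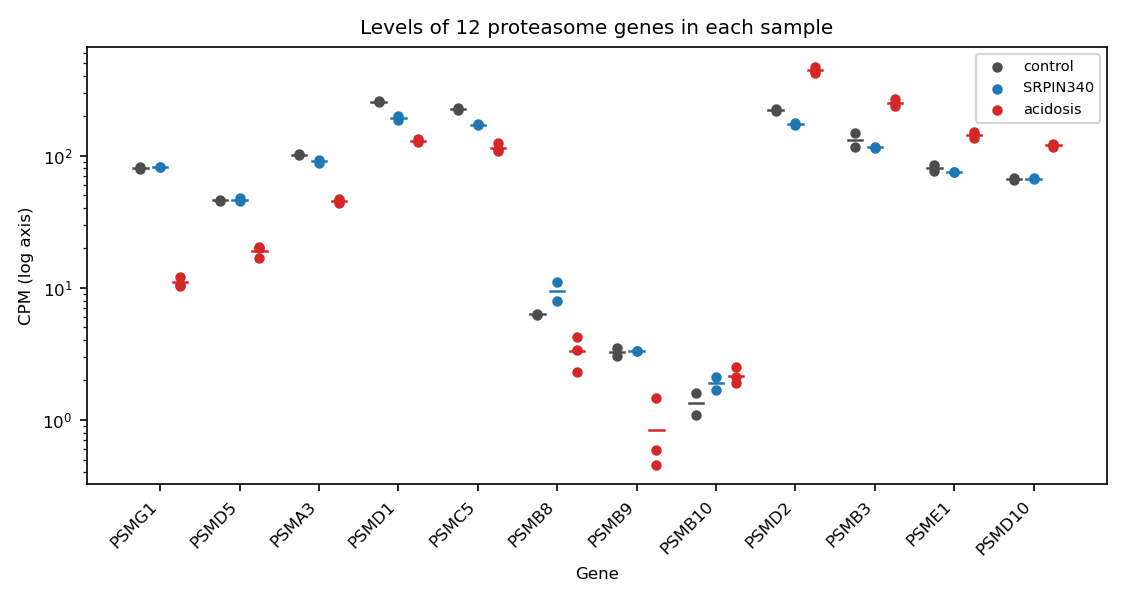
CPM (log axis) of 12 proteasome genes in each of the 7 samples, coloured by group, with a line at each group mean. Acidosis samples are lowest for PSMG1, PSMD5, PSMA3, PSMD1, PSMC5, PSMB8 and PSMB9 and highest for PSMD2, PSMB3, PSME1 and PSMD10 (the last 4 stayed above 0 with total-count scaling), and they overlap the SRPIN340 samples for PSMB10.

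Among the 6 cap ATPases, which form the unfolding ring, 1 rose, 3 fell and 2 did not pass in acidosis. With total-count scaling, 5 of them were lower and 1 did not pass. PSMC5 was 221 and 230 CPM in control, 173 and 169 CPM with SRPIN340 and 124, 108 and 112 CPM in acidosis. The 3 groups did not overlap, and PSMC5 fell by 0.98 ± 0.07 in acidosis on the log2 scale (adjusted p = 2.27e-06). PSMC3 was 130 and 124 CPM in control, 105 and 93.8 CPM with SRPIN340 and 181, 190 and 180 CPM in acidosis. It rose by 0.53 ± 0.08 (adjusted p = 0.00016), and stood at -0.05 with total-count scaling (adjusted p = 0.59). PSMC2 (-0.53) and PSMC1 (-0.34) fell, PSMC4 (0.12, and -0.45 with total-count scaling) and PSMC6 (-0.13) did not pass. PSMC2 overlaps PMPCB on its strand, and PSMC1 has 13 annotated pseudogenes that can share its reads.

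Of the 11 other cap subunits, 5 were higher, 5 lower and 1 did not pass in acidosis (background 32.5% higher and 34.2% lower). That even split depended on the scaling: by total count, 1 was higher, 9 lower and 1 did not pass. PSMD2 and PSMD1 are the large scaffold subunits of the cap base and moved apart. PSMD2 was 216 and 224 CPM in control, 176 and 170 CPM with SRPIN340 and 469, 423 and 433 CPM in acidosis. It was highest in acidosis in every sample, 2.01-fold above control (log2 1.00 ± 0.07, adjusted p = 9.63e-07, and 0.43 with total-count scaling). PSMD1 was 257 and 254 CPM in control, 185 and 199 CPM with SRPIN340 and 130, 126 and 133 CPM in acidosis, lowest in acidosis in every sample (-0.98 ± 0.06, adjusted p = 8.53e-07).

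PSMD3, a subunit of the cap lid, was 213 and 223 CPM in control, 171 and 169 CPM with SRPIN340 and 287, 260 and 280 CPM in acidosis. The groups did not overlap, and the rise of 0.34 ± 0.07 (adjusted p = 0.0013) turned to -0.23 with total-count scaling. The other rises (PSMD11 0.48, PSMD7 0.33 and PSMD8 0.17) turned to -0.09, -0.24 and -0.40. The falls were of PSMD4, a ubiquitin receptor (-0.57), PSMD13 (-0.53), PSMD6 (-0.40) and PSMD12 (-0.32). PSMD14, the cap's deubiquitinase, did not pass (-0.08).

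Unequal change within the particle was also seen in ratios of subunits of the same class, which scaling cannot alter. These 3 pairs were chosen after their values were seen and carry no test. PSMD2 was 95.9% and 101% of PSMD1 per kilobase in control, 108% and 97.7% with SRPIN340 and 413%, 384% and 372% in acidosis. PSMC3 was 51% and 46.7% of PSMC5 in control, 52.4% and 48% with SRPIN340 and 127%, 152% and 139% in acidosis. PSMA7 was 97.6% and 113% of PSMA3 in control, 112% and 105% with SRPIN340 and 314%, 293% and 295% in acidosis. In each pair the control and SRPIN340 values overlapped, and the acidosis values stood well above both.

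**Figure D3:**
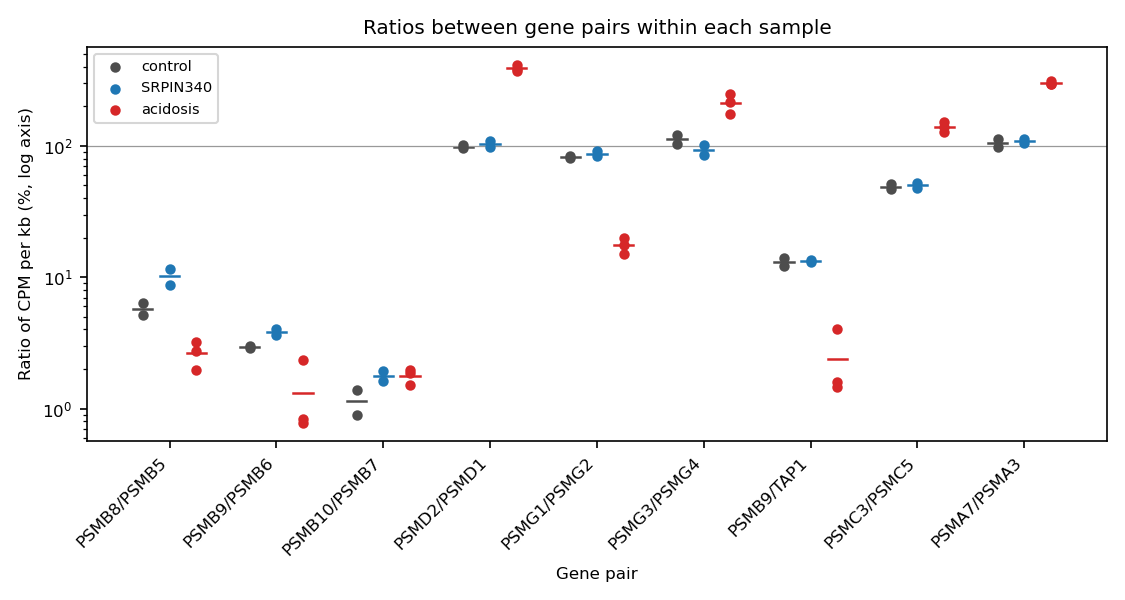
Ratio of CPM per kilobase (%, log axis) within each sample for 9 gene pairs, with points for samples coloured by group and lines at group means. The pairs PSMD2/PSMD1, PSMG3/PSMG4, PSMC3/PSMC5 and PSMA7/PSMA3 are highest in the 3 acidosis samples, and PSMB8/PSMB5, PSMB9/PSMB6, PSMG1/PSMG2 and PSMB9/TAP1 are lowest there.

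The spread over the 31 core and cap subunits of the particle, PSMA8 left out, summarised this. Set against the control mean of each gene, the SD of log2 levels over these subunits was 0.534, 0.534 and 0.518 in the acidosis samples, against 0.109 and 0.108 with SRPIN340. The control samples had 0.0541 each, a value that their own mean makes small. In all 3 acidosis samples PSMA3 was lowest and PSMD2 highest of the 31. The SD of log2 fold changes in acidosis was 0.52 for the 31 subunits and 1.35 for all genes tested. With SRPIN340 it was 0.10 for the 31 subunits and 0.50 for all genes, so the typical spread of genes also differed between the treatments. All genes tested include genes at much lower levels, and no set matched for level was compared.

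**Figure D4:**
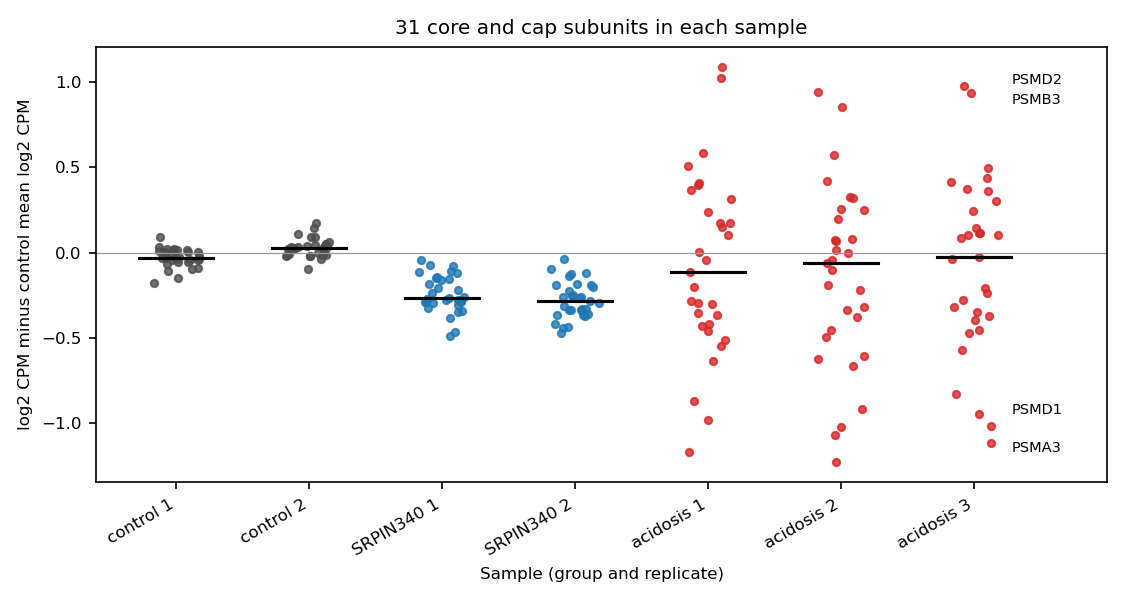
Each point is 1 of 31 core and cap subunits in 1 sample, as log2 CPM minus the control mean of that gene, with a line at the median of the sample. Points of the acidosis samples run from about PSMA3 at -1.23 to PSMD2 at 1.09, while points of the SRPIN340 samples lie between -0.49 and -0.03. Total-count scaling shifts all points of an acidosis sample by the same amount.

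The activators replace the cap and open the core. PSME1 and PSME2, the interferon-inducible pair that forms a ring together, both rose in acidosis, although PSMB8 and PSMB9 fell. PSME1 was 76.5 and 85.0 CPM in control, 75.5 and 75.3 CPM with SRPIN340 and 147, 135 and 150 CPM in acidosis (0.83 ± 0.08, adjusted p = 1.32e-05, and 0.26 with total-count scaling). PSME2 was 47.2 and 47.1 CPM in control, 40.2 and 37.5 CPM with SRPIN340 and 70.7, 72.7 and 74.6 CPM in acidosis (0.62 ± 0.09, adjusted p = 0.00012), but 0.05 with total-count scaling (adjusted p = 0.62), and it has 6 annotated pseudogenes. Every acidosis value of both genes exceeded every other sample.

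PSME3, the nuclear activator of the same family, fell in acidosis (-0.40 ± 0.08, adjusted p = 0.0013). PSME4, a large nuclear activator, was 186 and 188 CPM in control, 178 and 185 CPM with SRPIN340 and 101, 127 and 97.7 CPM in acidosis, below all other samples (-0.78 ± 0.11, adjusted p = 0.00011). PSMF1, a core-binding protein first described as an inhibitor, was 106 and 97.2 CPM in control and 117, 164 and 103 CPM in acidosis. It overlapped the control and did not pass (0.33 ± 0.18, adjusted p = 0.12, and -0.24 with total-count scaling), with acidosis sample 2 far above the other samples.

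The largest fall of any member was in an assembly gene. Of the 7 assembly genes, 4 fell, 1 rose and 2 did not pass in acidosis, while 6 fell and 1 rose with total-count scaling. PSMG1 and PSMG2 form the chaperone pair that starts the α ring. PSMG1 was 82.6 and 79.3 CPM in control, 82.4 and 82.0 CPM with SRPIN340 and 10.3, 10.6 and 12.1 CPM in acidosis. Its acidosis level was 7.38-fold lower (log2 -2.88 ± 0.10, adjusted p = 2.04e-08), while the SRPIN340 samples lay within the control range. PSMG2 was 59.9 and 60.2 CPM in control and 42.4, 36.4 and 37.4 CPM in acidosis (-0.63 ± 0.10, adjusted p = 0.00028). PSMG1 was 84.2% and 80.4% of PSMG2 per kilobase in control, 90.6% and 84.2% with SRPIN340 and 14.9%, 17.7% and 19.8% in acidosis, so the partners fell unequally.

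PSMG3 and PSMG4 form the other pair, which also supports assembly of the α ring. PSMG4 was 15.1 and 18.8 CPM in control and 9.86, 11.8 and 9.20 CPM in acidosis, without overlap (-0.72 ± 0.16, adjusted p = 0.0030). PSMG3 was 32.9 and 35.5 CPM in control and 44.6, 37.7 and 36.1 CPM in acidosis (0.21 ± 0.12, adjusted p = 0.16, and -0.37 with total-count scaling). The PSMG3 to PSMG4 ratio was 120% and 104% in control, 101% and 85.4% with SRPIN340 and 249%, 175% and 216% in acidosis.

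PSMD5, PSMD9 and PSMD10 are chaperones that hold ATPase subunits while the cap base forms. PSMD5 was 46.4 and 45.04 CPM in control, 47.4 and 45.2 CPM with SRPIN340 and 20.2, 19.8 and 16.8 CPM in acidosis, under every other sample (-1.27 ± 0.11, adjusted p = 5.23e-06). PSMD10 moved the other way, from 67.9 and 65.6 CPM in control and 66.2 and 67.6 CPM with SRPIN340 to 120, 116 and 123 CPM in acidosis (0.84 ± 0.07, adjusted p = 5.89e-06, and 0.27 with total-count scaling). PSMD9 did not pass (-0.03 ± 0.12, adjusted p = 0.86).

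SRPIN340 gave small changes of a different shape. No member rose and 5 fell (10.9% of 46, against 1.53% of all genes lower and 0.767% higher; edgeR, adjusted p under 0.05). At an unadjusted p under 0.05, 24 members were lower (background 9.48%) and 0 were higher (background 8.15%), and DESeq2 at an adjusted p under 0.05 had 15 lower (background 3.95%) and 0 higher (background 2.18%). Leaving out either control or either SRPIN340 sample left 0 calls in edgeR. Of the 46, 39 had a fold change below 0 (49.5% of all genes did), with a median of -0.19 against 0.00 for all genes. All 31 core and cap subunits were below 0, from -0.48 to -0.06.

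All 5 genes that fell with SRPIN340 encode cap subunits, which were 17 of the 46 members tested. Core genes also tended lower: at an unadjusted p under 0.05 (edgeR), 8 of 14 core and 14 of 17 cap genes were lower. PSMC1 was 219 and 213 CPM in control and 154 and 155 CPM with SRPIN340 (-0.48 ± 0.07, adjusted p = 0.0097). PSMD1 fell by 0.41 ± 0.07 (adjusted p = 0.026), PSMC5 by 0.40 ± 0.08 (adjusted p = 0.041), PSMD3 by 0.36 ± 0.07 (adjusted p = 0.040) and PSMD2 by 0.35 ± 0.07 (adjusted p = 0.043). In each of the 5, both SRPIN340 samples lay below both controls. The class medians were -0.17 in the α ring, -0.27 in the β ring, -0.34 in the cap ATPases, -0.30 in the other cap subunits, -0.17 in the activators and 0.00 in the assembly genes. The 3 tested immunoproteasome genes were above 0 (PSMB8 0.58, PSMB10 0.50 and PSMB9 0.03) and did not pass. The summed level of all members was 5005 and 4927 CPM with SRPIN340, below both controls.

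Side by side, PSMC1, PSMC5 and PSMD1 fell in both treatments, and PSMD2 and PSMD3 rose in acidosis and fell with SRPIN340, although PSMD3 was below 0 in acidosis with total-count scaling. Both comparisons share the control samples. The direct comparison tests the difference, and in it 18 members were higher in acidosis than with SRPIN340 (39.1%, background 32.8%), 15 were lower (32.6%, background 35.0%) and 13 did not pass. PSMD2 (1.35, adjusted p = 1.74e-07) and PSMB3 (1.12, adjusted p = 8.76e-06) stood highest in acidosis relative to SRPIN340. PSMG1 (-2.90, adjusted p = 2.11e-08) and PSMB9 (-2.00, adjusted p = 0.0024) stood lowest. PSMC1 did not pass in this comparison (0.14, adjusted p = 0.072). With total-count scaling, 6 members were higher and 31 lower, beside 2349 higher and 8450 lower of all 14863 genes.

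Related genes outside the PSM symbols were listed by function, and their counts stand beside 32.5% of all genes higher and 34.2% lower, or 16.2% and 55.0% with total-count scaling. Among 11 other proteasome parts in acidosis, 2 rose, 6 fell and 3 did not pass (median -0.59), and with total-count scaling 2 rose and 9 fell. PAAF1, a further chaperone of the cap base, was 22.3 and 22.0 CPM in control and 2.44, 2.66 and 4.04 CPM in acidosis, with a log2 fold change of -2.88 ± 0.20 (adjusted p = 1.09e-06). UCHL5, a cap-bound deubiquitinase, fell by 2.06. SEM1, the smallest cap subunit, rose by 1.23, and AKIRIN2, which takes proteasomes into the nucleus, rose from 47.7 and 46.9 CPM to 170, 164 and 170 CPM (1.82 ± 0.08, adjusted p = 5.05e-08), each also above 0 with total-count scaling (0.66 and 1.25). POMP, the maturation factor of the core, did not pass (0.15, and -0.42 with total-count scaling).

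Of 10 genes of the NFE2L1 route, 6 rose, 2 fell and 2 did not pass in acidosis, and with total-count scaling 4 rose, 3 fell and 3 did not pass. The small MAF partners rose most, with MAFF at 1.23 and 1.26 CPM in control and 129, 123 and 115 CPM in acidosis (6.62 ± 0.14, adjusted p = 1.1e-09), MAFK higher by 3.93 and MAFG by 3.55, and 6.04, 3.36 and 2.97 with total-count scaling. NFE2L1 itself was 245 and 237 CPM in control and 331, 407 and 350 CPM in acidosis (0.59 ± 0.09, adjusted p = 0.00025), but 0.01 with total-count scaling. VCP, which draws NFE2L1 out of the membrane, fell by 1.47 and NGLY1, which removes its sugars, by 1.41. DDI2 and NFE2L2 of the same list rose by 0.96 and 0.58, and were at 0.39 and 0.01 with total-count scaling. SYVN1 (0.30) and SEL1L (0.05) did not pass, and were at -0.28 and -0.52 with total-count scaling.

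Of 13 tested genes of ubiquitin, its activating enzymes and the shuttle proteins, 10 rose and 3 fell in acidosis (median 0.92), while with total-count scaling 8 rose, 4 fell and 1 did not pass (median 0.34). UBQLN4 turned from 0.23 to -0.34 and UBQLN2 from 0.55 to -0.03 with that scaling, and DDI1 had 0 counts. The ubiquitin gene RPS27A (1.48), the proteasome-activating ZFAND5 (1.41), the shuttle UBQLN1 (1.34) and the chaperone BAG6 (1.21) led, and stood at 0.90, 0.83, 0.76 and 0.63 with total-count scaling. The activating enzymes UBA1 (-1.05) and UBA6 (-1.12) fell. The list of 10 interferon and antigen processing genes had 5 higher, 2 lower and 3 that did not pass, which turned with total-count scaling to 2 higher, 6 lower and 2 that did not pass. In it STAT2, a factor of interferon signaling, was 73.8 and 72.2 CPM in control and 29.6, 30.02 and 29.7 CPM in acidosis (-1.30 ± 0.09, adjusted p = 1.11e-06), while B2M (1.56) and NLRC5 (1.44) rose, at 0.98 and 0.87 with total-count scaling.

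With SRPIN340 few of these related genes passed. IRF9, the partner of STAT2 in interferon signaling, fell (-1.13, adjusted p = 0.0083). It also fell in acidosis (-0.88, adjusted p = 0.00026, and -1.46 with total-count scaling). Between acidosis and SRPIN340 it did not pass (0.24, adjusted p = 0.15). With SRPIN340, ERAP2, a peptide-trimming enzyme, rose (0.43, adjusted p = 0.043). UBA1 fell by 0.30 (adjusted p = 0.043). Of the 11 other proteasome parts and the 10 NFE2L1 route genes, 0 passed in edgeR, with 3 and 1 lower and 0 and 1 higher at an unadjusted p under 0.05, and of the genes named from them VCP (-0.34, adjusted p = 0.048) passed as lower in DESeq2.

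**Figure D5:**
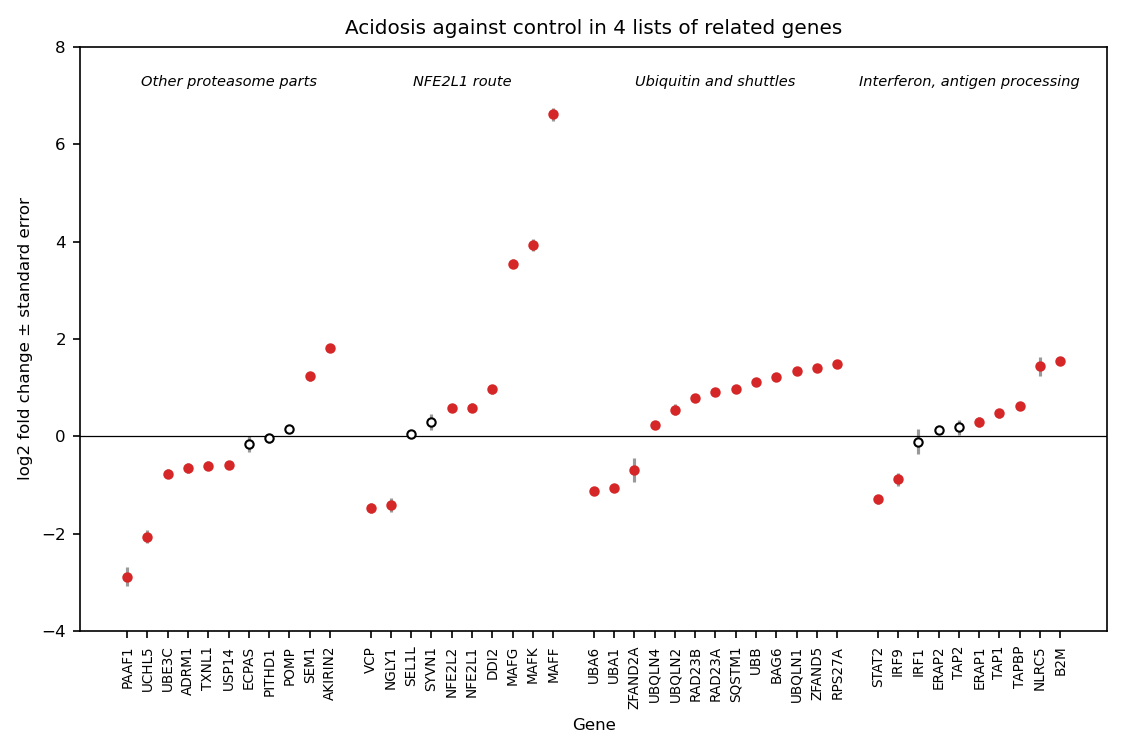
Log2 fold changes (± standard error) in acidosis against control for the genes of 4 related lists, ordered within each list, with filled points at an adjusted p under 0.05. The small MAF genes reach 6.62 (MAFF) and stay above 0 with total-count scaling, 10 of 13 ubiquitin and shuttle genes lie above 0 (8 passed as higher with total-count scaling), and PAAF1 and UCHL5 are below -2.

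Upstream windows were available for 42 of 48 members and for 15328 genes in all, and 9 short motifs were searched on both strands in these 250 bases. The TGACNNNGC form was in 13 of the 42 members and 14.8% of all genes with a window, and TGAGNNNGC, which can overlap it, in 10 of 42 and 19.8%. The 13 members went both ways in acidosis: 4 rose and 7 fell, with PSMB3, PSMD3, PSME1 and PSME2 among the first and PSMG1, PSMB9, PSMC5, PSMD5 and PSME4 among the second. Of the rises, PSMD3 was below 0 with total-count scaling. The ETS core CGGAAG was in 23 members (54.8%) and 26.0% of these genes, CCAAT in 19 (45.2%) and 40.7%, the STAT core TTCNNNGAA in 7 (16.7%) and 7.91%, and the interferon core GAAANNGAA in 5 (11.9%) and 8.0%. The heat shock core GAANNTTC (6.47% of these genes), the cAMP element TGACGTCA (2.78%) and the yeast proteasome element GGTGGCAAA (0.222%) were in 0 of the 42.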

How the data were processed

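Poly(A) RNA of 7 HEK-293 samples was sequenced (control 2, acidosis 3, SRPIN340 2). The authors trimmed reads with Trimmomatic 0.39 and Trim Galore 0.6.6 and ran Salmon 1.5.1 on Gencode transcripts (GRCh38.p13), followed by tximport. What was deposited is a gene table of estimated counts, without normalization. The option of tximport is not given in the sources used here. Such counts can split reads between genes that overlap or have pseudogenes, and 17 members have annotated pseudogenes. Readthrough genes overlap PSMA1, PSMA2, PSMA6, PSMB10 and PSMD9, and on the opposite strand ARMH4 overlaps PSMA3, FTSJ3 PSMC5 and HTR2B PSMD1.

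After rounding, R 4.3.3 with edgeR 4.0.16 was used for tests (TMM, filterByExpr, quasi-likelihood test, all 7 samples in a single fit), with Benjamini-Hochberg adjustment over 14863 genes. Standard errors come from the test statistic, and CPM use TMM-scaled totals over the tested genes (13612701 to 24103258 counts before scaling). DESeq2 1.42.0, other scalings, no filter, only the groups compared, a replicate block and each sample left out were alternatives. The tests were checked on simulated counts in which few genes changed, unlike in acidosis, so that check does not bear on the scaling. Counting floors (3 counts) cover counting error only.

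Members and lists were chosen with earlier results of these data known. Named were members passing with a log2 fold change over 1 or with SRPIN340, active-site, activator and PSMG genes, the extremes of each class, and for the related lists the upstream factors and the largest changes. IRF9, ERAP2, UBA1, UBA6, UBQLN2, UBQLN4, NGLY1, SYVN1, SEL1L, DDI1, PSMA2, PSMA5, PSMA8, PSMB1, PSMB2, PSMB11 and the remaining cap subunits are named beyond that rule to account for counts, as are PSMD9, TAP1, DDI2 and NFE2L2. Some genes of the related lists are not reported here, and the lists' counts are without them. Sequences are from RefSeq (GRCh38.p14), searched with Python 3.11.15. Plots used matplotlib 3.10.9.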

Additional observations from a re-analysis of the deposited data

How the results depend on the processing

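Scaling by total count only, which lowers the median of all genes in acidosis, moved most counts. In acidosis against control it left 4 members higher and 37 lower, beside 16.2% and 55.0% of all genes. It left 0 higher and 14 lower with a log2 fold change over 1. The share of all genes with that fold was not computed for this scaling. In acidosis against SRPIN340 it left 6 members higher and 31 lower, beside 2349 and 8450 of all 14863 genes. With SRPIN340 against control it left 2 members lower, beside 162 of all 14863 genes. The acidosis medians became -0.68 over all members, -0.71 in the α ring, -0.50 in the β ring, -1.51 in the immunoproteasome genes, -0.813 in the cap ATPases, -0.66 in the other cap subunits, -0.24 in the activators and -1.20 in the assembly genes, and -0.52 over all members against SRPIN340. Under it PSMA7 (-0.23), PSMB5 (-0.42), PSMB7 (-0.53), PSMC3 (-0.047), PSMD3 (-0.23), PSMG3 (-0.37) and POMP (-0.42) changed sign, each with a call under at least 1 of the scalings. Of other genes whose fold change in acidosis is given in the text, PSMB2, PSMD7, PSMD8, PSMD11, PSMC4, PSMF1, UBQLN2, UBQLN4, SYVN1, SEL1L and TAP1 also turned from above 0 to below it. PSMD2 sits at the fold limit: the count higher with a fold over 1 was 0 without the filter on low counts and with only the groups compared, and 0 to 2 with a sample left out. The immunoproteasome median was -0.30 without the filter, because PSMB11 then enters.

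The SRPIN340 calls are the least stable. The 5 lower members became 15 with DESeq2 and 0 to 8 with a sample left out (0 without either control or either SRPIN340 sample, 8 without acidosis sample 2 and 2 without acidosis sample 3), and the median over all members ran from -0.25 to -0.18. With the repeat number as a replicate block, 0 were lower. Deviations of same-numbered samples correlated at 0.01 between control and SRPIN340 and at -0.06 and -0.12 between control and acidosis. Between SRPIN340 and acidosis the values were 0.06 and 0.04. Deviations in a group of 2 samples mirror each other, so these values cannot settle whether the numbers pair the samples. The block left 12 higher and 21 lower members in acidosis. In acidosis, the other fits kept the direction of each gene chosen by the naming rule (other genes in the text were not compared across fits), and the PSMA7, PSMB5 and PSMF1 calls (PSMF1 passed as higher at 0.47 with the block) changed side of the threshold. Depth limits PSMB8, PSMB9 and PSMB10, and with 2 controls each control weighs heavily.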
